A study of Mus musculus with 39 samples.

Results

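Bone RNA of 8 mouse femur libraries labelled Sik2/3 DKO was compared with that of 8 libraries labelled WT (for Sik2/3 DKO). These 16 libraries were chosen by their labels from the 39 of the whole series, and were fitted alone. The genotype label is the only description of the groups, so the allele, any Cre driver, the strain, age and number of animals are not given in the sources used here. All 16 came from femoral cortical bone whose ends had been cut and whose marrow had been rinsed out, and the design text counts 6 WT samples where the labels give 8. The labels do not say that the libraries came from separate animals, so p-values measure the spread between these libraries, which may be partly technical. Each library labelled DKO held between 22122742 and 23306853 gene counts, and each labelled WT between 20324595 and 24922490. Levels are given in CPM, gene counts scaled to a common library size with TMM factors, and differences as log2 fold changes of DKO over WT with their standard error, from edgeR's quasi-likelihood test over 15479 genes with Benjamini-Hochberg adjustment. A gene was called where its adjusted p was under 0.05.

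Salt-inducible kinases are activated by the kinase LKB1 (Stk11). They phosphorylate the CRTC coactivators of CREB and the class IIa histone deacetylases, which are then held in the cytoplasm. Parathyroid hormone, through its receptor Pth1r, cAMP and protein kinase A, inhibits these kinases, and osteocytes and osteoblasts answer with changes in Sost, the Wnt antagonist sclerostin, and Tnfsf11, the osteoclast-inducing factor RANKL. Cortical bone also encloses vessels, marrow remnants, muscle attachments and osteoclasts, whose RNA enters such libraries.

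The targeted genes did not follow the labels at the level of whole-gene counts. Sik2 ranged from 20.3 to 38.1 CPM in the libraries labelled DKO (median 31.4) and from 16.2 to 25.5 in the other 6 labelled WT, with 15.7 in WT 5 and 20.95 in WT 6 (ENSMUSG00000037112, chromosome 9, 50700917 to 50817178 on the minus strand of NCBIM37; log2 fold change 0.64 ± 0.14, adjusted p = 0.00127). The groups overlapped, and Sik2 was higher, not lower, in the libraries labelled DKO. For Sik3 the values were 80.4 to 125 CPM (median 83.3) in the libraries labelled DKO, 69.6 to 134 in the other 6 labelled WT, 72.9 in WT 5 and 122 in WT 6 (ENSMUSG00000034135, chromosome 9, 45820903 to 46032277 on the plus strand of NCBIM37; log2 fold change -0.21 ± 0.144, adjusted p = 0.223), and the groups overlapped throughout. Neither the deleted exons nor the recombined cells are given in the sources used here, and a gene-level count includes the exons outside a deletion, so these counts do not check the deletion. Exons of Sik2 overlap those of Ppp2r1b, a phosphatase subunit gene chosen for mention after its values were seen, whose levels did not overlap between groups (69.1 to 107 against 47.5 to 53.8 CPM). Reads in the shared exons count for neither gene. The third family member, Sik1, a cAMP-induced gene, stood at 38.03 to 68.6 CPM under the DKO label and at 39.04 to 111 in those labelled WT (log2 fold change -0.35 ± 0.208, adjusted p = 0.161), and reached the threshold at -0.48 without WT 5 and WT 6 (adjusted p = 0.0386).

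Libraries WT 5 and WT 6 stood apart from the other 6 labelled WT. The first principal component of log2 CPM (63.3% of variance) put all 8 libraries labelled DKO between -81.1 and -26.7, WT 5 at -22.8, WT 6 at -17.5 and the other 6 labelled WT between 60.1 and 101.8. Among the 3430 genes tested in both fits and called with more than a 2-fold change when these libraries were left out, WT 5 lay nearer the DKO mean for 76.4% and WT 6 for 77.4%. On a scale where 0 is the mean of the other 6 labelled WT and 1 the mean of the 8 labelled DKO, the median gene was at 0.73 in WT 5 and 0.69 in WT 6. Xist, the transcript of the inactive X chromosome, exceeded 100 CPM in DKO 7 and 8 and in WT 3, 4, 5 and 6, and the other 10 libraries held the Y-linked Ddx3y instead. The labels do not give sex. WT 1 and 2 were the most alike pair (chi-square per degree of freedom 7.37), followed by DKO 4 and 5 (14.8), DKO 4 and 8 (17.5), DKO 5 and 8 (17.6), WT 3 and 4 (17.97) and WT 7 and 8 (18.3), while the other pairs in a group were at 36.6 or more. The share of reads tallied as not uniquely aligned was 31.6% ± 2.53 in the libraries labelled DKO and 28.7% ± 5.22 in those labelled WT (SD, n = 8 each; exact permutation test, two-sided, p = 0.179, adjusted p = 0.268), with 41.2% in WT 5.

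**Figure D1:**
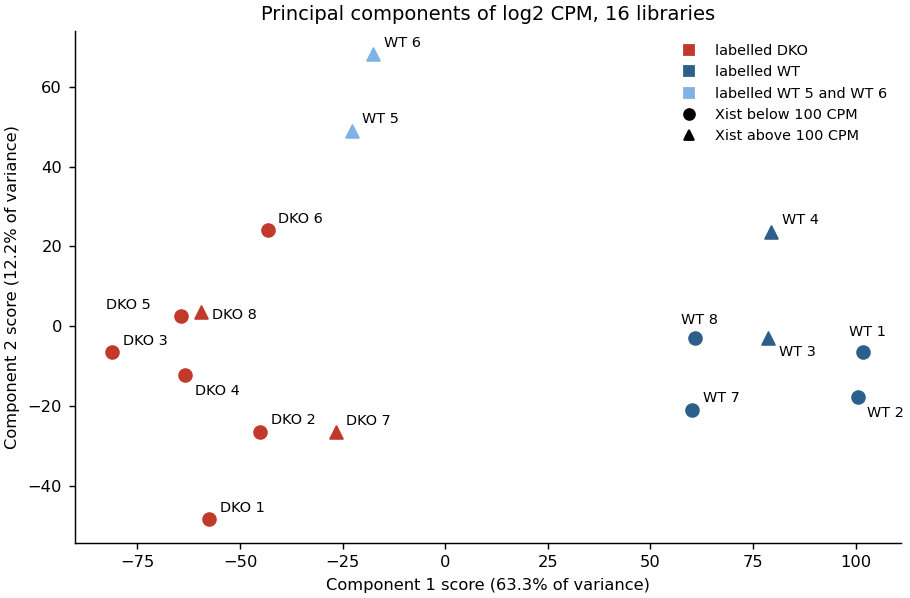
Scores of the 16 libraries on the first principal component of log2 CPM (x axis, 63.3% of variance) and the second (y axis, 12.2%), coloured by label and shaped by whether Xist exceeded 100 CPM. WT 5 and WT 6 lie at -22.8 and -17.5 on the x axis, next to the libraries labelled DKO, and the other 6 labelled WT lie between 60.1 and 101.8.

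Of all genes tested, 8514 (55.0%) were called: 3726 (24.1%) had higher and 4788 (30.9%) lower levels under the DKO label. With more than a 2-fold change required, these counts were 1649 (10.7%) and 1046 (6.76%). Every library labelled DKO lay above every library labelled WT for 922 genes (5.96%) and below them all for 631 (4.08%). Without WT 5 and WT 6, 4884 of 15660 genes (31.2%) were higher and 5201 (33.2%) lower, 64.4% in all. Of the 8514 genes called with all libraries, 8165 were called in the same direction without WT 5 and WT 6, 349 were not called and 0 were called in the other direction. A further 1805 genes tested in both fits were called only without them. The balance of directions depended on the scaling: 43.8% of called genes were higher with TMM, 49.6% with relative log expression factors and 66.1% with total counts alone, which raised the median log2 fold change by 0.21. In bulk RNA, fewer cells of a type and less RNA per cell cannot be told apart. A blood score, the mean of z-scored globin, neutrophil and B cell precursor lists, was 0.419 to 1.11 in the libraries labelled DKO and -1.55 to -0.581 in the other 6 labelled WT, with 0.48 in WT 5 and 0.0993 in WT 6. This score shared 69.1% of the variance of the group label. For the globin and erythroid list, the summed level was 4021 to 15201 CPM in the libraries labelled DKO, 555 to 1008 in the other 6 labelled WT, 6178 in WT 5 and 2579 in WT 6. The part of blood transcripts in the other differences was not tested beyond a fit with this score. Because the score overlaps the label and was highest among WT libraries in WT 5 and WT 6, that fit cannot separate blood transcripts from the label. Calls lost or kept with this score are therefore only a description. With it as a covariate, 500 genes (3.23%) were higher and 993 (6.42%) lower, 9.65% in all, and 69 of the 91 named genes called without it were not called.

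Within the kinase pathway, the CREB coactivator Crtc2 rose slightly, while Hdac4, a class IIa deacetylase, and Pth1r, the receptor of parathyroid hormone, fell. Of 17 listed SIK kinases, activators and substrates, 6 rose (35.3%) and 3 fell (17.6%), beside 24.1% and 30.9% of all genes tested. The list had a median log2 fold change of -0.14 beside -0.09 over all genes tested. The risers were Sik2, Stk11, its partner Strada, Crtc2, Hdac9 and Creb1. The fallers were Cab39, Crtc1 and Hdac4. Hdac4 lay at 11.3 to 19.2 CPM in the libraries labelled DKO (median 14.3), at 21.02 to 39.4 in the other 6 labelled WT, at 21.2 in WT 5 and at 18.1 in WT 6 (log2 fold change -0.91 ± 0.168, adjusted p = 3.69e-04), and the groups overlapped only through DKO 1 and WT 6. The entry counted as Hdac4 (ENSMUSG00000073617, chromosome 1, 93825362 to 93827753 on the minus strand of NCBIM37) has 2392 exon bases. That is its whole span, without an intron, so its counts may not stand for the whole gene. Crtc2 lay at 62.4 to 84.4 CPM in the libraries labelled DKO (median 71.7), at 59.0 to 67.2 in the other 6 labelled WT, at 40.6 in WT 5 and at 59.7 in WT 6 (log2 fold change 0.28 ± 0.0904, adjusted p = 0.0161), and WT 5 was the lowest of the 16 libraries. Pth1r ranged from 169.7 to 337 CPM in the libraries labelled DKO (median 205) and from 428 to 544 in the other 6 labelled WT, with 253 in WT 5 and 261 in WT 6 (log2 fold change -1.02 ± 0.186, adjusted p = 3.26e-04), and DKO 7 lay above WT 5 and WT 6. The calls of Hdac4 (-0.24, adjusted p = 0.554), Pth1r (-0.14, adjusted p = 0.723) and Sik2 (0.59, adjusted p = 0.155) were lost with the blood score as a covariate, and that of Crtc2 was kept (0.53).

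The listed enzymes that degrade cAMP were lower. Of 19 listed genes of the PTH receptor, Gs and protein kinase A, 11 fell (57.9%) and 4 rose (21.1%), with a median of -0.22. Of all genes tested, 30.9% were lower and 24.1% higher. All 5 listed phosphodiesterases fell, namely Pde4a, Pde4b, Pde4d, Pde7b and Pde8a. The list holds no other phosphodiesterase, so this is not a result for the whole class. Pde7b ranged from 22.8 to 42.8 CPM in the libraries labelled DKO (median 34.8) and from 99.3 to 169 in the other 6 labelled WT, with 102 in WT 5 and 122 in WT 6 (log2 fold change -1.87 ± 0.149, adjusted p = 3.49e-06). WT 5 and WT 6 lay with the other libraries labelled WT for this cAMP phosphodiesterase, and the groups did not overlap. For Pde4d the values were 19.8 to 27.2 CPM (median 23.96) in the libraries labelled DKO, 32.8 to 56.9 in the other 6 labelled WT, 32.5 in WT 5 and 59.9 in WT 6 (log2 fold change -0.89 ± 0.121, adjusted p = 4.38e-05), again without overlap. With the blood score as a covariate both stayed called, at -1.59 for Pde7b and -0.90 for Pde4d, and in the whole list 3 fell and 2 rose. The catalytic subunits Prkaca and Prkacb and the regulatory subunits Prkar1a and Prkar2a also fell. Prkar2b rose by 1.76 and the cyclase Adcy7 by 0.84 on the log2 scale. The beta-arrestins Arrb1 and Arrb2 rose as well.

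Osteoclast genes were lower as a group. Of 21 tested members of the resorption and fusion list, 19 fell (90.5%, beside 30.9% of all genes tested) and 1 rose, with a median log2 fold change of -1.35. For the whole list, the summed level was 5313 to 11427 CPM in the libraries labelled DKO, 19769 to 35245 in the other 6 labelled WT, 11639 in WT 5 and 5976 in WT 6. Acp5 ranged from 1278 to 3258 CPM in the libraries labelled DKO (median 1531) and from 6363 to 12005 in the other 6 labelled WT, with 3686 in WT 5 and 1655 in WT 6 for this tartrate-resistant acid phosphatase (log2 fold change -2.04 ± 0.341, adjusted p = 1.73e-04). Ctsk lay at 897 to 2530 CPM in the libraries labelled DKO (median 1090), at 4897 to 9805 in the other 6 labelled WT, at 2865 in WT 5 and at 1291 in WT 6 (log2 fold change -2.19 ± 0.359, adjusted p = 1.52e-04) for the protease that digests bone collagen. For both genes WT 6 fell inside the DKO range and WT 5 between the groups. The fusion genes Dcstamp (Tm7sf4 in the annotation), at -1.99, and Atp6v0d2, at -1.90, fell alike, as did the calcitonin receptor Calcr at -1.29. The sorting nexin Snx10, at -1.84, had the smallest p of the list. Itgb3 did not pass the test. The single riser, the carbonic anhydrase Car2, is also abundant in red cells. Car2 stood at 354 to 1080 CPM under the DKO label and at 46.4 to 77.8 in the other 6 labelled WT (log2 fold change 2.10 ± 0.537, adjusted p = 0.00368). Its groups overlapped, because WT 5, WT 6 or both reached at least the lowest DKO value. Fitted with the blood score as a covariate, 0 of the 21 fell and 0 rose (median -0.21), and the lost calls included Acp5 (-0.49, adjusted p = 0.51), Ctsk (-0.60, adjusted p = 0.45), Tm7sf4 (-0.53, adjusted p = 0.511), Atp6v0d2 (-0.42, adjusted p = 0.522), Calcr (-0.68, adjusted p = 0.255) and Snx10 (-0.64, adjusted p = 0.258).

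Factors that control osteoclasts fell with them. Of 8 tested members 7 were lower, with a median of -1.05, and none was higher (24.1% of all genes were higher and 30.9% lower). For Tnfsf11 the values were 6.36 to 14.1 CPM (median 9.96) in the libraries labelled DKO, 31.7 to 47.9 in the other 6 labelled WT, 21.5 in WT 5 and 10.3 in WT 6 (log2 fold change -1.71 ± 0.242, adjusted p = 5.56e-05), so WT 6 lay among the libraries labelled DKO. Csf1 lay at 104 to 181 CPM in the libraries labelled DKO (median 130), at 348 to 373 in the other 6 labelled WT, at 155 in WT 5 and at 148 in WT 6 (log2 fold change -1.19 ± 0.199, adjusted p = 1.72e-04) for the macrophage growth factor that osteoclast precursors need. The RANKL decoy receptor Tnfrsf11b fell too (log2 fold change -0.91 ± 0.257, adjusted p = 0.00685), with DKO 2 at 84.2 CPM inside the WT range. That call was lost in the libraries with Y-linked transcripts alone (-0.65, adjusted p = 0.136). Wnt5a, Sema3a, Sfrp1 and Lif were the other fallers. None of the 8 was called with the blood score as a covariate, among them Tnfsf11 (-0.91, adjusted p = 0.122), Csf1 (-0.091, adjusted p = 0.819) and Tnfrsf11b (-0.44, adjusted p = 0.532).

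Osteoblast genes gave a mixed picture, in which several matrix proteins fell while type I collagen and osteocalcin did not pass the test. Of 19 osteoblast genes, 7 fell (36.8%, beside 30.9% of all genes tested) and none rose (median -0.42). Mmp13 ranged from 757 to 1698 CPM in the libraries labelled DKO (median 1077) and from 6534 to 10155 in the other 6 labelled WT, with 3930 in WT 5 and 2027 in WT 6 for the collagenase of osteoblasts and hypertrophic cartilage, which was not in the list (log2 fold change -2.55 ± 0.295, adjusted p = 1.80e-05), without overlap between groups, and it stayed called with the blood score as a covariate (-1.45). Spp1 lay at 2416 to 5646 CPM in the libraries labelled DKO (median 3625), at 14474 to 20072 in the other 6 labelled WT, at 7191 in WT 5 and at 3966 in WT 6 (log2 fold change -1.82 ± 0.296, adjusted p = 1.42e-04) for osteopontin. Panx3 had the smallest p of the list (log2 fold change -2.20 ± 0.354, adjusted p = 1.36e-04). Runx2, Sparc, Ifitm5, Ibsp and the phosphatase Alpl (-0.65) also fell. For Col1a1 the values were 36975 to 98218 CPM (median 60219) in the libraries labelled DKO, 87004 to 136150 in the other 6 labelled WT, 35743 in WT 5 and 65921 in WT 6 (log2 fold change -0.59 ± 0.256, adjusted p = 0.0609), and the fold change was -0.76 without WT 5 and WT 6 (adjusted p = 0.00481). Osteocalcin, Bglap, had 917 to 2974 CPM in the libraries labelled DKO and 264 to 2336 in those labelled WT (log2 fold change 0.74 ± 0.401, adjusted p = 0.125), and was called at 1.35 without WT 5 and WT 6 (adjusted p = 0.00445); it has near-identical copies, whose reads may be split or lost. Sp7, a transcription factor of the lineage, did not pass at -0.33 (adjusted p = 0.22). In the same fit with the blood score 0 of the 19 listed genes were called lower, and those that lost the call included Spp1 (-0.74, adjusted p = 0.295), Panx3 (-0.67, adjusted p = 0.379) and Alpl (0.15, adjusted p = 0.705).

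Enzymes that modify and fold collagen fell more evenly. Of 17 members of the collagen I processing list, 12 fell (70.6%, beside 30.9% of all genes tested) and none rose (median -0.58). The fallers included P4ha2, Plod1, Serpinh1, Crtap, Bmp1, Pcolce and Lox. Ppib lay at 56.1 to 81.4 CPM in the libraries labelled DKO (median 67.5), at 98.0 to 116 in the other 6 labelled WT, at 98.0 in WT 5 and at 72.9 in WT 6 (log2 fold change -0.59 ± 0.0896, adjusted p = 8.85e-05) for the isomerase of the prolyl hydroxylation complex, and the groups overlapped through WT 6, whose value of 72.9 lay below the DKO 7 value of 81.4 CPM. In the mineralization list, 5 of 14 fell (35.7%) and Fgf23, a phosphate-lowering hormone, rose (log2 fold change 1.26 ± 0.468, adjusted p = 0.031). The pyrophosphate transporter Ank fell by 1.78 on the log2 scale. Neither list held a called gene once the blood score was a covariate, where the values were Ppib (-0.32, adjusted p = 0.133) and Ank (-0.78, adjusted p = 0.325).

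Osteocyte genes went in both directions. Of 15, 6 rose (Sost, Fgf23, Dkk1, Kcnk2, Hpse and Reln) and 2 fell (Tnfrsf19 and Cd44). These shares were 40% and 13.3%, beside 24.1% higher and 30.9% lower of all genes tested. Sost ranged from 168 to 1508 CPM in the libraries labelled DKO (median 452) and from 23.6 to 66.3 in the other 6 labelled WT, with 239 in WT 5 and 531 in WT 6 (log2 fold change 2.13 ± 0.693, adjusted p = 0.0159). The libraries labelled DKO spanned a wide range, with DKO 2 the highest, and WT 5 and WT 6 lay inside it. Without WT 5 and WT 6 the Sost difference was 3.86 (adjusted p = 5.52e-06), without WT 6 alone it was 3.04, and with similar WT pairs summed the call was lost (1.64, adjusted p = 0.0967). Dmp1, a matrix protein of mature osteocytes, was at -0.69 (adjusted p = 0.0918) and was called without WT 5 and WT 6 at -0.86 (adjusted p = 0.0363). Phex did not pass the test at 0.14. For Tnfrsf19 the values were 112 to 257 CPM (median 182) in the libraries labelled DKO, 503 to 549.5 in the other 6 labelled WT, 266 in WT 5 and 217 in WT 6 (log2 fold change -1.39 ± 0.216, adjusted p = 1.06e-04). No gene of the list was called with the blood score as a covariate, among them Sost (0.55, adjusted p = 0.735) and Tnfrsf19 (-0.32, adjusted p = 0.422).

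Transcripts of red cells, neutrophils, B cell precursors, T and NK cells and platelets were higher for most listed genes, beside 24.1% of all genes tested. Of the globin and erythroid list 11 of 13 tested members rose (median 2.54), of the red cell membrane list 14 of 15 (2.55), of neutrophil primary granules 8 of 10 (2.07), of secondary granules 14 of 16 (2.11), of B cell precursors 15 of 16 (2.36), of T and NK cells 12 of 16 (1.98), and of megakaryocytes and platelets 14 of 14 (2.39). In the mature B and plasma cell list 8 of 12 rose (median 1.76) and Sdc1, a plasma cell surface proteoglycan that other cells also make, at -2.55, and Prdm1, at -1.04, fell. Hba-a1 ranged from 771 to 3480 CPM in the libraries labelled DKO (median 1065) and from 19.6 to 67.4 in the other 6 labelled WT, with 597 in WT 5 and 492 in WT 6 (log2 fold change 3.10 ± 0.763, adjusted p = 0.00286), and was 5.23 without WT 5 and WT 6 (adjusted p = 1.18e-07). Hba-a1 and Hba-a2 are near-identical, so their reads may be split or lost. For Gata1 the values were 48.8 to 144 CPM (median 74.3) in the libraries labelled DKO, 1.10 to 3.80 in the other 6 labelled WT, 33.3 in WT 5 and 29.2 in WT 6 (log2 fold change 3.05 ± 0.684, adjusted p = 0.00152) for the erythroid transcription factor. Ltf lay at 849.7 to 2363 CPM in the libraries labelled DKO (median 1768), at 76.0 to 305 in the other 6 labelled WT, at 508 in WT 5 and at 700.1 in WT 6 (log2 fold change 2.64 ± 0.44, adjusted p = 1.76e-04) for lactoferrin of neutrophil secondary granules. The groups did not overlap for Hba-a1, Gata1 and Ltf, with WT 5 and WT 6 between them. Hba-a1 and Gata1 were named by a rule that required this, so for them the lack of overlap is not a result. Gata1 was at 3.67 without WT 5 alone and at 5.03 without WT 5 and WT 6. Globin, neutrophil and B cell precursor genes make up the blood score, and the calls of Hba-a1 (0.41, adjusted p = 0.61), Gata1 (0.46, adjusted p = 0.482) and Ltf (0.53, adjusted p = 0.234) were lost with it.

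Leaving out single libraries changed the size or the call for several platelet and red cell genes. Among them were Pf4, Hbb-b1 and Hba-a1, which was at 3.78 without WT 5 alone. Pf4 ranged from 119 to 342 CPM in the libraries labelled DKO (median 171) and from 10.7 to 27.8 in the other 6 labelled WT, with 225 in WT 5 and 99.0 in WT 6 (log2 fold change 1.80 ± 0.584, adjusted p = 0.0159), the platelet chemokine, so WT 5 lay inside the DKO range. Without WT 5 alone the Pf4 difference was 2.64. Hbb-b1, beta-globin, was called near the threshold with all libraries (log2 fold change 2.23 ± 0.887, adjusted p = 0.0421). Hbb-b1 lost that call in many alternatives, such as no filter on low counts (2.25, adjusted p = 0.0845), without DKO 1 (1.94, adjusted p = 0.0813) and without WT 1 (2.05, adjusted p = 0.0644). Without WT 5 alone it was 3.87 (adjusted p = 2.43e-04) and without WT 5 and WT 6 5.20 (adjusted p = 5.70e-08). Lef1 fell in the B cell list, the gelatinase Mmp9, which osteoclasts also make, fell in the neutrophil list, and the heparanase Hpse rose, at 18.1 to 39.5 CPM under the DKO label against 1.89 to 15.3 under the WT label, without overlap.

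**Figure D2:**
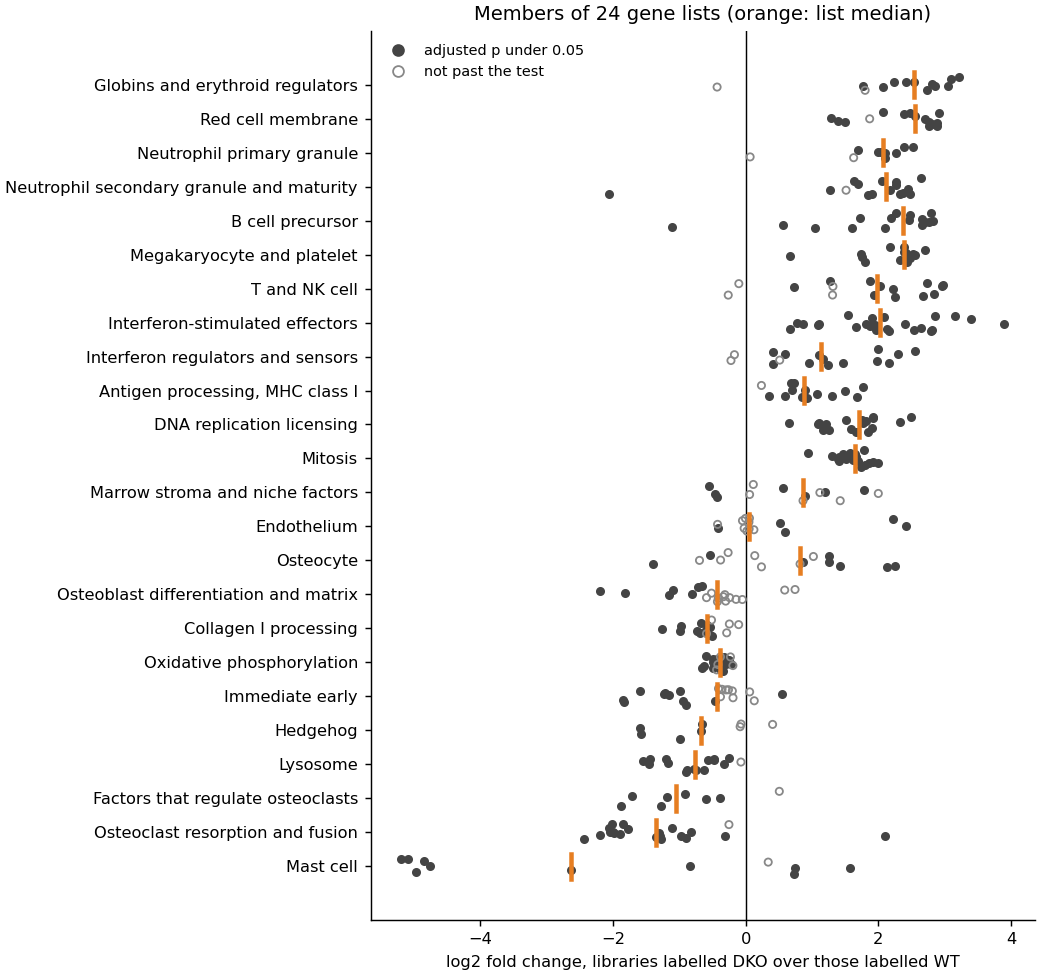
Log2 fold changes (x axis, libraries labelled DKO over those labelled WT) of the tested members of 24 gene lists (y axis), filled where the adjusted p was under 0.05 and open otherwise, with the list median in orange. The medians of the 7 blood cell lists above the interferon lists, of the interferon lists and of the cell division lists lie right of 0, at up to 2.55, and those of the osteoclast and mast cell lists lie left of it, at -1.35 and -2.63.

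Most tested mast cell genes were lower, while the basophil list was mixed and its proteases Mcpt8 and Prss34 were higher. In the mast cell list 7 of 11 tested members fell (63.6%) and 3 rose (27.3%), beside 30.9% and 24.1% of all genes tested (median -2.63). Mcpt4 ranged from 0.438 to 6.64 CPM in the libraries labelled DKO (median 1.43) and from 30.4 to 156 in the other 6 labelled WT, with 44.7 in WT 5 and 6.47 in WT 6 (log2 fold change -5.09 ± 0.658, adjusted p = 3.39e-05) for this mast cell protease. The chymase Cma1 (-4.75), the receptor Mrgprb1 (-4.84) and the carboxypeptidase Cpa3 (-2.63) fell too. WT 3 and WT 4 were the highest for Mcpt4, at 144 and 156 CPM, and WT 6 lay within the DKO range. Mcpt4 stayed called with the blood score as a covariate (-4.06), in the libraries with Y-linked transcripts alone (-4.33) and without DKO 1 (-5.70). Kit, Hdc and Slc18a2, which basophils or progenitors also express, were the 3 that rose. In the basophil list 6 of 11 rose (54.5%) and 4 were not called (Cd200r3, Ms4a2, Cyp11a1 and Il1rl1). Among the risers, Gata2 is also in the progenitor list, Ccr3 in the eosinophil list and Itga2b in the megakaryocyte list. Mcpt8 lay at 9.06 to 21.6 CPM in the libraries labelled DKO (median 13.4), at 0.239 to 1.73 in the other 6 labelled WT, at 7.71 in WT 5 and at 3.82 in WT 6 (log2 fold change 2.75 ± 0.544, adjusted p = 6.03e-04), and Prss34 ranged from 15.97 to 54.7 CPM in the libraries labelled DKO (median 31.9) and from 0.287 to 5.02 in the other 6 labelled WT, with 6.95 in WT 5 and 8.54 in WT 6 (log2 fold change 3.33 ± 0.565, adjusted p = 1.98e-04). Both encode basophil proteases, and neither overlapped between groups. Mcpt8 was at 3.43 without WT 5 alone and at 3.99 without WT 5 and WT 6. Fcer1a, the receptor for IgE on both cell types, was the 1 faller of that list (log2 fold change -2.33 ± 0.651, adjusted p = 0.00643). In the blood score fit 6 mast cell genes were called lower and 0 basophil genes higher, and lost calls included Cpa3 (-1.84, adjusted p = 0.134), Mcpt8 (0.37, adjusted p = 0.292) and Prss34 (0.60, adjusted p = 0.363).

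Among mononuclear phagocytes the directions were split. Macrophage genes fell in 5 of 13 and rose in 2, with Csf1r, the receptor for macrophage growth factor, at -1.65, and monocyte genes rose in 7 of 15, with the integrin Itgam at 1.32, and fell in 4. Csf1r belongs to both lists, is also expressed in osteoclast precursors, and shares exons with Hmgxb3. Dendritic cell and MHC class II genes rose in 11 of 17 (1.14). Eosinophil genes rose in 3 of 10, and in 10 of 10 without WT 5 and WT 6. Hematopoietic progenitor genes rose in 9 of 15 (60%, beside 24.1% of all genes) and fell in 3 (20%). The macrophage share of 5 of 13 (38.5%) was near the 30.9% of all genes. With the blood score as a covariate Csf1r (-0.0098, adjusted p = 0.991) and Itgam (0.75, adjusted p = 0.125) lost their calls, 0 of 17 dendritic cell and MHC class II genes were called, and 5 of 10 eosinophil genes were lower and 0 higher.

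The size of the difference in marrow stromal factors depended on WT 5 and WT 6. Cxcl12 ranged from 1376 to 2176 CPM in the libraries labelled DKO (median 1964) and from 121 to 194 in the other 6 labelled WT, with 2104 in WT 5 and 1374 in WT 6 (log2 fold change 1.78 ± 0.612, adjusted p = 0.0214) for the chemokine that retains blood progenitors in the marrow. WT 5 and WT 6 were at the DKO level, above the other 6 labelled WT, and without them the difference was 3.64 (adjusted p = 9.08e-10). Of 13 members, 4 rose and 3 fell with all libraries (median 0.87), beside 24.1% and 30.9% of all genes tested. Without WT 5 and WT 6, 9 rose and 2 fell, beside 31.2% and 33.2% of all genes in that fit. For Grem1 the values were 26.8 to 57.8 CPM (median 35.6) in the libraries labelled DKO, 0.478 to 1.73 in the other 6 labelled WT, 44.5 in WT 5 and 28.1 in WT 6 (log2 fold change 2.000 ± 0.864, adjusted p = 0.0595), the BMP antagonist, which was called only without them (5.39). The receptor Lepr went the other way and was lower, at -0.47 with all libraries and -0.43 without WT 5 and WT 6. The Cxcl12 call was lost with the blood score as a covariate (-0.29, adjusted p = 0.685). For this list, the summed level was 2406 to 3139 CPM in the libraries labelled DKO, 730.4 to 928 in the other 6 labelled WT, 3457 in WT 5 and 2551 in WT 6.

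Vessel and connective tissue lists held genes called in both directions, at shares to be read beside the 24.1% higher and 30.9% lower of all genes. In endothelium 4 of 14 rose and Emcn fell (median 0.052). Stab2 lay at 65.2 to 92.9 CPM in the libraries labelled DKO (median 76.5), at 3.24 to 8.60 in the other 6 labelled WT, at 44.4 in WT 5 and at 42.9 in WT 6 (log2 fold change 2.42 ± 0.574, adjusted p = 0.00228) for the scavenger receptor of sinusoidal endothelium, and Vwf ranged from 117 to 226 CPM in the libraries labelled DKO (median 146) and from 11.9 to 26.7 in the other 6 labelled WT, with 81.2 in WT 5 and 78.4 in WT 6 (log2 fold change 2.22 ± 0.395, adjusted p = 2.81e-04) for von Willebrand factor of endothelium and megakaryocytes. Cdh5, the general endothelial cadherin, did not pass the test at -0.047. Pericyte and smooth muscle genes fell in 4 of 11 (36.4%) and rose in none, with Acta2 at -1.27 and Tagln at -1.15. Periosteum and tendon genes fell in 6 of 14 (42.9%) and rose in none, led by Thbs4 (-2.03), while Postn did not pass (-0.30, adjusted p = 0.431). In the Schwann cell list 3 of 8 fell (37.5%), with S100b at -1.70, and Mbp rose. Of 14 muscle genes only Actn3 was called lower (-1.87, adjusted p = 0.0436), and WT 6 held 2011 CPM; the call was lost in several alternatives, among them without WT 5 and WT 6 (-0.71, adjusted p = 0.346). Of 10 tested cartilage genes 0 passed edgeR's test and 0 had an unadjusted p under 0.05; DESeq2 called 0, limma 2 higher and 2 lower, and edgeR without WT 5 and WT 6 called 2 higher. Calls lost with the blood score as a covariate included Vwf (0.63, adjusted p = 0.228), Acta2 (-0.22, adjusted p = 0.713) and Thbs4 (-1.82, adjusted p = 0.0625).

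Interferon-stimulated genes were higher in every tested member of their effector list. Type I interferons induce such genes through a factor complex that includes Irf9 and binds the interferon-stimulated response element, and their products, such as the Oas enzymes, restrict viruses. Of 24 effectors, 24 rose (median 2.03, and 24.1% of all genes were higher). For the list, the summed level was 631 to 1508 CPM in the libraries labelled DKO, 189 to 307 in the other 6 labelled WT, 491 in WT 5 and 419.6 in WT 6. Oas3 ranged from 22.8 to 93.3 CPM in the libraries labelled DKO (median 38.2) and from 0.478 to 3.77 in the other 6 labelled WT, with 7.04 in WT 5 and 8.45 in WT 6 (log2 fold change 3.90 ± 0.58, adjusted p = 7.98e-05), and was 4.896 without WT 5 and WT 6 (adjusted p = 8.53e-07). The groups did not overlap for 15 of the 24, as for 5.96% of all genes. For Rsad2 the values were 106 to 279 CPM (median 165) in the libraries labelled DKO, 4.58 to 9.50 in the other 6 labelled WT, 92.5 in WT 5 and 67.2 in WT 6 (log2 fold change 2.81 ± 0.647, adjusted p = 0.00185). The groups did not overlap, and WT 5 and WT 6 lay between them. Ifit1, an inhibitor of foreign RNA translation, rose by 1.67 and Samhd1 by 1.10 on the log2 scale. Of the regulators and sensors 13 of 16 rose (median 1.14), among them Irf7 at 2.55. The genes that present antigen on MHC class I rose in 13 of 14 (median 0.88). Tap2 lay at 41.1 to 52.2 CPM in the libraries labelled DKO (median 50.2), at 23.7 to 25.99 in the other 6 labelled WT, at 24.6 in WT 5 and at 28.6 in WT 6 (log2 fold change 0.93 ± 0.0647, adjusted p = 1.29e-06) for the peptide transporter, with WT 5 and WT 6 inside or next to the WT range, and no overlap between groups. With the blood score as a covariate 0 of the 24 effectors and 0 of the 16 regulators were called higher, with medians of 0.58 and 0.48, and 5 of the 14 MHC class I genes were. Tap2 stayed called in that fit at 0.82, and Oas3 (1.32, adjusted p = 0.081), Ifit1 (0.17, adjusted p = 0.819), Irf7 (1.10, adjusted p = 0.0665) and Samhd1 (0.71, adjusted p = 0.0536) did not.

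The core letters of the interferon-stimulated response element, GAAA-NN-GAAA (N is any base) on either strand, were in 10 of the 17 effector genes whose upstream windows could be matched to RefSeq, or 11 of 19 windows (57.9%). They were in 3.17% of windows of all tested genes, in 4.97% of those called higher and in 2.34% of those called lower. The windows reached from 250 bases before to 50 bases after each gene start on GRCm38.p6, and a match describes letters, not binding. The 250 upstream bases of 4 effectors that carry the core are shown. They were picked for the largest differences among core-carrying genes of the interferon and MHC class I lists that were called higher without overlap. Capitals mark the core, read 5′ to 3′ on the gene's strand, and in Rsad2 it lies on the other strand. Oas3 lies at chr5:120777660-120777909, Oas1g at chr5:120887614-120887863, Oas1a at chr5:120907526-120907775 and Rsad2 at chr12:26456453-26456702, all on the minus strand. In Oas1g and Oas1a 2 matches overlap.
Oas3: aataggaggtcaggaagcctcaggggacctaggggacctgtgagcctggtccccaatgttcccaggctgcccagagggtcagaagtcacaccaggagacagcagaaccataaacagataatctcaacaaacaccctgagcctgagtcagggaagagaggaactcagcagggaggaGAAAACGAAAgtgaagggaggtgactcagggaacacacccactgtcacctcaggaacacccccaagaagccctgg
Oas1g: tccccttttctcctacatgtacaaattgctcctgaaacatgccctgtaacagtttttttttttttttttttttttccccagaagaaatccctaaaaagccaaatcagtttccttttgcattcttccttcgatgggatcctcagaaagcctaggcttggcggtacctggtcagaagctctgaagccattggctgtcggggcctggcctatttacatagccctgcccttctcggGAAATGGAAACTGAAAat
Oas1a: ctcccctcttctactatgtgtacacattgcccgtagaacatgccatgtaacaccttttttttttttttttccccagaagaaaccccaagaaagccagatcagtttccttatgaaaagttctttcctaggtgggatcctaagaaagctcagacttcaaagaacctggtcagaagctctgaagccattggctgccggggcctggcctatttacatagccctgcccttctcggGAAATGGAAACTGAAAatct
Rsad2: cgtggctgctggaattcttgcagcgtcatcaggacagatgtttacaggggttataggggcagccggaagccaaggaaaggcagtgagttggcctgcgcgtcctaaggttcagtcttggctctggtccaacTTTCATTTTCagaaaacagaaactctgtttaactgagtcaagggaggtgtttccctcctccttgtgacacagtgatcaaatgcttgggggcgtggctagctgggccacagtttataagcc
The first core match began 75 bases before the start of Oas3, 18 before that of Oas1g, 20 before that of Oas1a and 120 before that of Rsad2.

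Cell division genes were higher as completely. All 18 DNA replication licensing genes rose (median 1.71) and all 19 mitosis genes rose (median 1.65). Mki67 ranged from 425 to 1328 CPM in the libraries labelled DKO (median 917) and from 65.2 to 188 in the other 6 labelled WT, with 520.3 in WT 5 and 505 in WT 6 (log2 fold change 1.99 ± 0.425, adjusted p = 0.00107). Mcm3 lay at 86.3 to 180.3 CPM in the libraries labelled DKO (median 136), at 20.96 to 36.7 in the other 6 labelled WT, at 55.6 in WT 5 and at 57.1 in WT 6 (log2 fold change 1.82 ± 0.199, adjusted p = 1.28e-05) for a subunit of the replicative helicase. Cdt1, a licensing factor, rose by 1.22 and Plk1, a mitotic kinase, by 1.92 on the log2 scale. With the blood score as a covariate 5 of the 18 and 1 of the 19 were called higher. In that fit Mcm3 (0.89), Cdt1 (1.01) and Plk1 (0.95) kept their calls and Mki67 (0.14, adjusted p = 0.835) did not. Among inhibitors of cyclin-dependent kinases and D cyclins, 4 rose (40%) and 4 fell (40%), beside 24.1% and 30.9% of all genes tested. For Cdkn2a the values were 0.475 to 3.82 CPM (median 0.756) in the libraries labelled DKO, 13.1 to 20.6 in the other 6 labelled WT, 5.11 in WT 5 and 1.35 in WT 6 (log2 fold change -3.35 ± 0.532, adjusted p = 1.22e-04), and its neighbour Cdkn2b fell alike (-2.77). The cyclin Ccnd3 rose by 1.30 on the log2 scale while Ccnd1 and Ccnd2 fell. Of 15 p53 targets 7 fell (46.7%) and 2 rose (13.3%), with Gtse1, also a mitotic gene, at 1.65.

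Most signalling lists and the immediate early list held more genes that fell than rose, as all genes tested did (30.9% lower and 24.1% higher). Of 20 immediate early genes 10 fell (50%) and 1 rose (median -0.43). The groups did not overlap for 3 of the 20, all lower, as for 4.08% of all genes. Jun ranged from 21.5 to 42.7 CPM in the libraries labelled DKO (median 31.2) and from 67.6 to 91.5 in the other 6 labelled WT, with 42.7 in WT 5 and 71.7 in WT 6 (log2 fold change -1.23 ± 0.161, adjusted p = 3.55e-05). Egr1 lay at 30.4 to 52.95 CPM in the libraries labelled DKO (median 38.8), at 124 to 222.7 in the other 6 labelled WT, at 56.2 in WT 5 and at 54.5 in WT 6 (log2 fold change -1.83 ± 0.271, adjusted p = 7.66e-05). Fos fell too (log2 fold change -1.59 ± 0.277, adjusted p = 2.34e-04). Part of the cAMP response element, the letters TGACG on either strand, was in 12 of the 20 windows matched for this list (60%), beside 28.7% of windows of all tested genes. The share was also 60% (9 of 15 windows) in the MHC class I list, which rose. The full element, TGACG followed by TCA, was in 1 of the 20 windows (5%), beside 2.83% of all. Of 8 Hedgehog genes 5 fell and none rose, with the effector Gli3 at -1.59 and the target Gli1 at -1.58. In the TGF-beta and BMP list 10 of 21 fell (47.6%) and Ltbp2 and Bmp7 rose, with the receptor Tgfbr1 at -1.44. In the IGF and FGF list 9 of 18 fell (50%) and Igf1r and Fgf23 rose. For Fgf7 the values were 5.19 to 8.30 CPM (median 7.04) in the libraries labelled DKO, 22.7 to 28.1 in the other 6 labelled WT, 20.8 in WT 5 and 13.5 in WT 6 (log2 fold change -1.74 ± 0.136, adjusted p = 3.49e-06), without overlap, and Fgf7 stayed called with the blood score as a covariate (-1.24). In the Notch list 5 of 14 fell (35.7%, near the share of all genes) and Notch1 and Hey1 rose, with the target Hes1 at -0.70. Of 15 clock genes 9 fell and Arntl rose, with the repressor Bhlhe40 at -1.27; the time of day at collection is not given in the sources used here. Calls of Jun (-0.77, adjusted p = 0.0646), Gli3 (-0.36, adjusted p = 0.293), Tgfbr1 (-0.49, adjusted p = 0.123), Hes1 (-0.35, adjusted p = 0.465) and Bhlhe40 (-0.23, adjusted p = 0.64) were lost with the blood score as a covariate.

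Metabolic lists separated oxidative phosphorylation and lysosomes from cholesterol synthesis. Oxidative phosphorylation genes fell in 18 of 23 and rose in none (median -0.39). Ndufs3 ranged from 24.5 to 31.9 CPM in the libraries labelled DKO (median 25.5) and from 32.2 to 39.4 in the other 6 labelled WT, with 36.3 in WT 5 and 40.2 in WT 6 (log2 fold change -0.48 ± 0.0672, adjusted p = 4.98e-05), a complex I subunit, and WT 5 and WT 6 were with the other libraries labelled WT. With total counts alone 5 of the 23 fell, and with the blood score as a covariate 17 did. Lysosomal genes fell in 15 of 16 (median -0.76), with Cd63 at -0.90. Cholesterol synthesis genes rose in 8 of 17 (47.1%, beside 24.1% of all genes) and fell in 2. Fdps, a synthase of farnesyl diphosphate, rose by 0.94 on the log2 scale. Hypoxia targets fell in 6 of 13 and glycolysis genes rose in 4 and fell in 4 of 17; with total counts alone 4 hypoxia targets rose and 2 fell, and the glycolysis median went from -0.21 to 0.01. Pdk1 belongs to both lists and fell (-0.41), a call lost with total counts alone (-0.20, adjusted p = 0.0556). Unfolded protein response genes fell in 6 of 18 (33.3%, near the 30.9% of all genes) and Ern1 rose, with Creb3l1 at -1.08. Chemokines and receptors rose in 13 of 20 and fell in 4, with Ccl7 at -2.98. The blood score as a covariate left 1 of 16 lysosomal genes called lower, and ended the calls of Cd63 (-0.55, adjusted p = 0.0956), Fdps (0.54, adjusted p = 0.0516) and Creb3l1 (0.39, adjusted p = 0.373).

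By fold change, the rule named the 8 highest and 8 lowest of 943 genes. These 943 passed the test, averaged at least 20 CPM over the 16 libraries and did not overlap between groups. Some passed the CPM limit only through their high group, such as Aspg, with a mean of 23.9 CPM overall and 4.47 under the DKO label. Large differences and groups without overlap were part of the rule, so for these genes they are not a result. The highest held Oas3, Hba-a1, Hba-a2, Gata1 and Ermap, which were also in the lists, and Slc38a5, Ctse and F2rl2, which were not. For F2rl2 the values were 44.8 to 81.2 CPM (median 52.4) in the libraries labelled DKO, 1.69 to 3.24 in the other 6 labelled WT, 23.9 in WT 5 and 18.4 in WT 6 (log2 fold change 2.92 ± 0.549, adjusted p = 4.28e-04) for a thrombin-responsive receptor of platelets. Ctse ranged from 162 to 429 CPM in the libraries labelled DKO (median 261) and from 2.05 to 9.81 in the other 6 labelled WT, with 118 in WT 5 and 108 in WT 6 (log2 fold change 3.09 ± 0.791, adjusted p = 0.00376), an aspartic protease found in red cell precursors. Its difference was 3.755 without WT 5 alone and 5.51 without WT 5 and WT 6. The lowest included the mast cell gene Cma1 and, outside the lists, Kcnj15, 1810041L15Rik, Aspg, Fcrls, Mmp13 and Sfrp4. Aspg lay at 3.18 to 6.05 CPM in the libraries labelled DKO (median 4.30), at 37.5 to 77.9 in the other 6 labelled WT, at 23.8 in WT 5 and at 8.003 in WT 6 (log2 fold change -3.28 ± 0.35, adjusted p = 1.23e-05), and it stayed called with the blood score as a covariate (-1.93). For Sfrp4 the values were 49.6 to 152 CPM (median 87.3) in the libraries labelled DKO, 500.4 to 728 in the other 6 labelled WT, 259 in WT 5 and 188 in WT 6 (log2 fold change -2.42 ± 0.297, adjusted p = 2.51e-05) for a secreted Wnt antagonist of bone. Calls of F2rl2 (0.88, adjusted p = 0.11), Ctse (0.29, adjusted p = 0.731), Kcnj15 (-1.63, adjusted p = 0.0712), 1810041L15Rik (-2.34, adjusted p = 0.0655), Fcrls (-1.72, adjusted p = 0.0515) and Sfrp4 (-1.36, adjusted p = 0.0625) were lost with the blood score as a covariate.

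**Figure D3:**
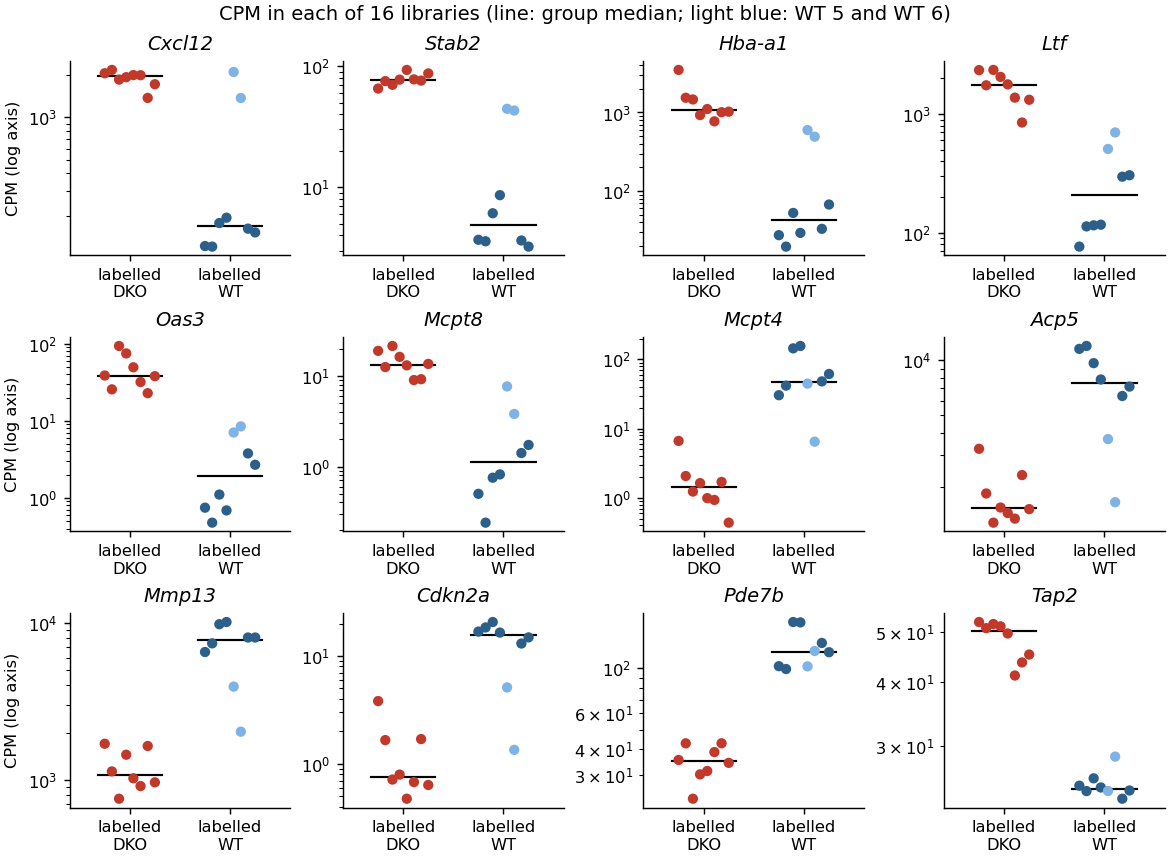
Level of 12 genes in each library (y axis, CPM on a log scale; x axis, label), with red points for libraries labelled DKO, dark blue for those labelled WT, light blue for WT 5 and WT 6, and a line at each group median. WT 5 and WT 6 lie with the DKO libraries for Cxcl12, between the groups for Hba-a1 and Oas3, and with the other WT libraries for Pde7b, at 102 and 122 CPM.

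The position of WT 5 and WT 6 differed between gene lists. On the scale from 0 (other 6 labelled WT) to 1 (labelled DKO), the medians were 1.05 in WT 5 and 0.92 in WT 6 for marrow stroma and 0.95 in both for Hedgehog genes. For osteoclast genes WT 6 was at 1.06 and WT 5 at 0.64. Interferon-stimulated effectors lay at 0.62 and 0.51, and MHC class I genes at 0.59 and 0.34. Mast cell genes were at 0.12 in WT 5 and 0.68 in WT 6. Oxidative phosphorylation genes were at -0.68 and -0.80, beyond the other 6 labelled WT in the direction away from DKO. These positions use genes chosen for differing between the other libraries and are a description.

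**Figure D4:**
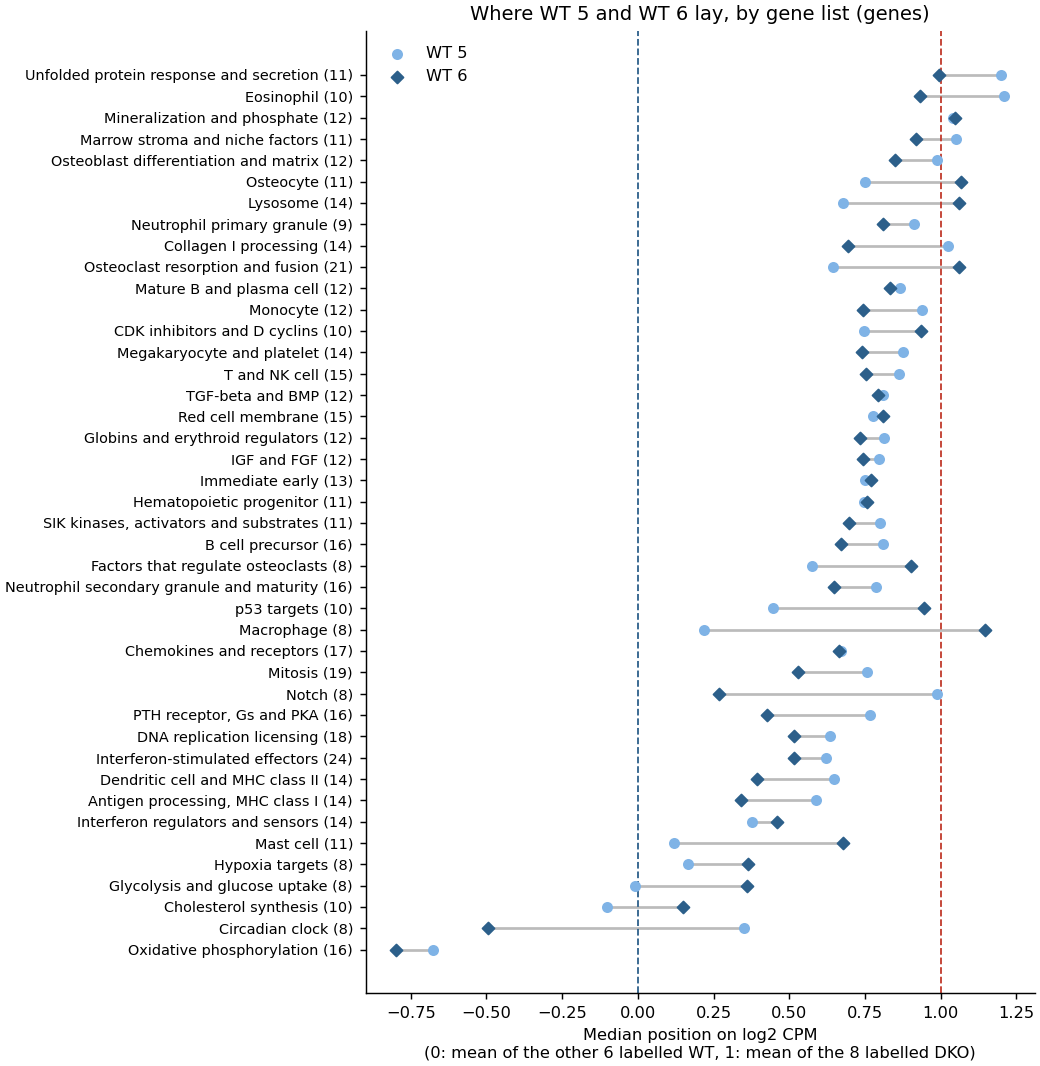
Median position of WT 5 (circles) and WT 6 (diamonds) on a log2 CPM scale where 0 is the mean of the other 6 libraries labelled WT and 1 that of the 8 labelled DKO (x axis), for gene lists with at least 8 genes called without WT 5 and WT 6 (y axis, gene number in brackets). Marrow stroma lies at 1.05 and 0.92 and oxidative phosphorylation at -0.68 and -0.80.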

How the data were processed

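RNA of 16 mouse femur cortical bone libraries was sequenced single-end on a BGISEQ500, and reads were mapped with STAR to mm9 and counted with HTSeq 0.6.0, per the labels and the series design text; the STAR version is not given in the sources used here. The deposited values are raw counts per gene for 37583 genes, without strand per the file names, although the design text calls them CPM. The 5 HTSeq tallies were left out of the library sizes. Of the gene identifiers 37168 matched GENCODE vM1 on NCBIM37 and 415 did not. In counting without strand, reads in exons of more than 1 gene count for neither.

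Low genes were removed with filterByExpr (count 10, total 15), libraries were scaled by TMM, and groups were tested with edgeR 4.0.16 (quasi-likelihood, robust; R 4.3.3), with Benjamini-Hochberg adjustment over 15479 genes at 0.05, and log2 CPM had a prior count of 2. Alternatives used DESeq2 1.42.0, limma 3.58.1, other scaling, no filter, a replicate block, a blood score covariate, no WT 5 and WT 6, and each library left out. A fit with Xist as a covariate, a fit of the libraries with Y-linked transcripts alone, and a fit of similar WT pairs summed were chosen after seeing the data. On simulated counts with 200 changed genes among 15350, the test found 27.3% of those changed 1.5-fold, 77.3% at 2-fold and 95.2% at 4-fold. Of the calls on these counts, 7.19% were false. In the libraries themselves 8514 of 15479 genes (55.0%) were called, and whether these shares hold there was not tested. Intervals of depth cover counting error only, since reads carry no molecular identifiers.

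The comparison, the 51 gene lists (775 of 782 memberships matched, 759 tested) and the naming rule were chosen with earlier results of these data known. Named genes are a panel of pathway, bone and blood genes, the 8 highest and 8 lowest log2 fold changes among called genes that averaged 20 CPM or more and whose groups do not overlap, and the member with the smallest p of each list: 102 genes, of which 91 were called and 17 share exons with another gene (Sik2, Col1a1, Mpo, Rag1, Irf7, Ppib, Tagln, Col10a1, Gypc, Gfi1, F5, Csf1r, Tap2, Ccnd3, Bhlhe40, Jun and Ndufs3). Other list members given with values, such as Grem1, Stab2, Rsad2, Egr1, Cdkn2a and Car2, were chosen after their values were seen. A few genes that the rule or lists hold are not reported here, and list counts include them. Promoter windows and motifs used RefSeq on GRCm38.p6. Figures used Python 3.11.15 and matplotlib 3.10.9.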

Additional observations from a re-analysis of the deposited data

Results flagged for a closer look

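In 204 groups of 8 libraries (each named gene in each label), 28 had a highest or lowest library whose gap to its neighbour exceeded Dixon's critical share of the group's range. That share is set for about 1 in 20 in independent groups with normal values. Here most flags were on the high side of unlogged CPM and 10 came from DKO 1, so that rate does not apply. All values are in CPM. DKO 2 stood far above its group for Sik3 (125), Tnfrsf11b (84.2) and Sost (1510). WT 5 stood far above its group for Hbb-b1 (3240) and Pf4 (225) and far below it for Crtc2 (40.6). DKO 7 stood far above its group for Pth1r (337), Creb3l1 (323) and Hes1 (32.9). DKO 1 stood far above its group for Ctsk (2530), Hbb-b1 (6110), Mcpt4 (6.64), Hba-a2 (2160), Hba-a1 (3480), Gata1 (144), F2rl2 (81.2), Cma1 (4.73), Sdc1 (139) and Csf1r (414). WT 6 stood far above its group for Sost (531), Actn3 (2010) and Tap2 (28.6) and far below it for Ppib (72.9) and Cd63 (188). DKO 6 stood far above its group for Postn (2680), Thbs4 (105) and Ndufs3 (31.9). DKO 3 stood far above its group for Col10a1 (25.6).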

How the results depend on the processing

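The numbers of genes higher (3726), lower (4788), higher by more than 2-fold (1649) and lower by more than 2-fold (1046) stayed within 1.5 times under other tools, scaling by relative log expression, no filter, the Xist covariate, Y-linked libraries alone, summed WT pairs and no WT 5 and WT 6. With the blood score as a covariate they were 500, 993, 29 and 356, and with total counts alone 2697 were lower, 650 of them by more than 2-fold. Leaving out 1 library in turn gave 3410 to 4204 higher, 4340 to 5186 lower, 1536 to 1924 higher over 2-fold and 972 to 1231 lower over 2-fold. No clear pairing by replicate number was seen. Same-numbered libraries correlated at -0.256 to 0.309 and 2 of 8 correlated best with their own number. These correlations used deviations from group means, which WT 5 and WT 6 shift, so pairing was not excluded. With the replicate block 3803 genes were higher and 4619 lower.

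With the blood score as a covariate, log2 fold changes took the other sign for Sik1 (0.52), Sik3 (0.15), Alpl (0.15), Col1a1 (0.67), Bglap (-0.36), Sp7 (0.44), Hbb-b1 (-0.48), Rag1 (-0.85), Pf4 (-0.38), Cxcl12 (-0.29), Cdh5 (0.54), Col10a1 (-0.14), Ccr3 (-0.15) and Creb3l1 (0.39). Of the 91 named genes called, 69 were not called in that fit. Postn took the other sign with limma voom (0.049), without WT 5 and WT 6 (0.064) and in Y-linked libraries alone (0.033), Phex in Y-linked libraries alone (-0.016) and without DKO 2 (-0.022; -0.022 to 0.25 over single libraries left out), Sik3 with total counts alone (0.0071) and Uty with the Xist covariate (-0.011). Cdh5 did so with relative log expression factors (0.0074), total counts alone (0.18), DESeq2 (0.0074), summed WT pairs (0.013) and without DKO 3 (0.0013), WT 1 (0.014) or WT 2 (0.0041; -0.12 to 0.014 over single libraries left out). Without WT 5 and WT 6, list medians changed sign for skeletal muscle (0.16) and glycolysis (0.037). The cause of these changes was not tested. Depth was similar across libraries, and genes under the count filter were not tested.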
